A study of Drosophila melanogaster with 2 samples.

Results

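Introns other than the first held 934 of the 6270 joint binding peaks of CG34367, or 14.9%. A peak was placed there when its summit lay in an intron of a protein-coding transcript but in the first intron of none, outside every exon of a protein-coding gene, and more than 500 bp from any transcription start site (TSS) of a protein-coding or ncRNA gene. The peaks came from ChIP-seq of whole Drosophila melanogaster pupae aged 24 hours, from a transgenic line that stably expressed CG34367 with GFP at its C-terminus, recovered with an antibody to GFP. There was 1 group of 2 libraries, biological replicates 1 and 2, and the joint list holds peaks that passed the authors' threshold on the irreproducible discovery rate. The tag reports the transgenic protein in all tissues of the animal together, and the number of animals per library was not given. Sex was not recorded, the control was not analysed here, and the sources used here give no read depth. The other joint summits lay within 500 bp of a TSS (2259, 36.0%), in first introns (1751, 27.9%), between genes (1232, 19.6%) or in exons (94, 1.499%).

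CG34367 encodes a homeodomain protein. Homeodomains are DNA-binding folds that contact short AT-rich sites, most often with the core TAAT, and paired-class members can bind as dimers to cores that face each other. In flies, enhancers are frequent in introns. First introns begin near the promoter, whereas later introns lie further inside the transcription unit and can hold enhancers of the host gene or of a neighbour. A summit inside a gene therefore does not by itself name the gene it acts on, and host gene below means only the gene whose intron holds the summit.

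Sequence at the strongest later-intron summits showed how the TAAT cores were spread. The windows below cover 50 bp on either side of the 5 strongest summits shown, read from the plus strand of the RefSeq Release 6 assembly at dm6 coordinates, and the capitals mark TAAT on either strand. They are CG11050 (chr2L:6612663-6612763), osa (chr3R:17704362-17704462), pum (chr3R:9229223-9229323), Trl (chr3L:14759459-14759559) and Raf (chrX:2300653-2300753).
CG11050: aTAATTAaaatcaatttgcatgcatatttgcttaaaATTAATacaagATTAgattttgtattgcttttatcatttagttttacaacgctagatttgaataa
osa: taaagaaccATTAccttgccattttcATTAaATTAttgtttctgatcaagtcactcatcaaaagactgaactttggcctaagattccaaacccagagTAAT
pum: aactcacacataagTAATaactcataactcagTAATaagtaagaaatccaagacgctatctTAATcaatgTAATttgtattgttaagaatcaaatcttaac
Trl: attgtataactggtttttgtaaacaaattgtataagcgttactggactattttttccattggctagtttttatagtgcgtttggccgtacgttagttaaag
Raf: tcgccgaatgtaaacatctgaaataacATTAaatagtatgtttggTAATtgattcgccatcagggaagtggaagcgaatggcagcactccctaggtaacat
CG11050 held 5 copies of TAAT, osa and pum 4 each, Raf 2 and Trl 0. GC content was 20.8% at CG11050, 33.7% at osa, 26.7% at pum, 32.7% at Trl and 40.6% at Raf. A summit without TAAT thus stood among the strongest 5 shown, and a GC content below that of later introns as a whole (39.9%) was found at 4 of them. A further word, ATCTTA, which was named after its values were seen and is described with the hexamers, lay once in the osa window and 2 times in that of pum.

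The next 2 windows are from among the strongest members that hold TAAT and ATTA facing each other with 2 or 3 bases between them, the arrangement bound by paired-class dimers, and here the capitals mark that pair alone. They lie in upSET (chr3L:14005017-14005117) and Syn (chr3R:10213589-10213689).
upSET: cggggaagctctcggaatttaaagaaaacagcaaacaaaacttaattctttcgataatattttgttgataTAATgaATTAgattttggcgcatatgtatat
Syn: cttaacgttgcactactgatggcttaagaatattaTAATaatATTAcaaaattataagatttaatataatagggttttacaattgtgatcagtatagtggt
Peak signal was 1115 at upSET and 760 at Syn, against a median of 233 over the 934 peaks. Facing cores were rare. Of the 934 windows, 27 (2.89%, exact binomial interval 1.91 to 4.18%) held such a pair, 11 with a spacing of 2 and 16 with a spacing of 3. A flank centred on a later-intron base 400 bp away could be paired with 910 of the windows. Among these pairs, the spacing of 2 was found in 1.21% of summits and 0.220% of flanks. The spacing of 3 was found in 1.54% of summits and 0.220% of flanks. Windows of the same length laid end to end through all later-intron sequence held them in 0.668% and 0.917%, and in 1.31% and 1.71% when weighted to the GC content of the summits. At equal GC content, the summits' 1.18% and 1.71% were thus close to those of later-intron sequence as a whole.

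Per base, later introns carried far fewer summits than first introns and about as many as the sequence between genes. The density was 31.4 summits per Mb in the 29.8 Mb of later-intron sequence (95% exact Poisson interval 29.4 to 33.5), against 78.7 per Mb in first introns (75.1 to 82.5) and 31.9 per Mb between genes (30.1 to 33.7). Taking the 6270 strongest peaks of each library, replicate 1 gave 30.9 and replicate 2 gave 31.4 per Mb in later introns, where first introns had 75.5 and 80.7 and intergenic sequence 32.9 and 31.5. The means were 31.1 ± 0.333 per Mb in later introns, 78.1 ± 3.62 in first introns and 32.2 ± 0.952 between genes (SD, n = 2 libraries). The values of later and first introns did not overlap between libraries. The ratio of later to first introns was 0.399 (0.368 to 0.432, two-sided exact binomial test, adjusted p = 1.18e-120), and that of later introns to intergenic sequence was 0.984 (0.902 to 1.07, exact adjusted p = 0.713). These tests treat summits as independent, and summits are not replicates of the animals.

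**Figure D1:**
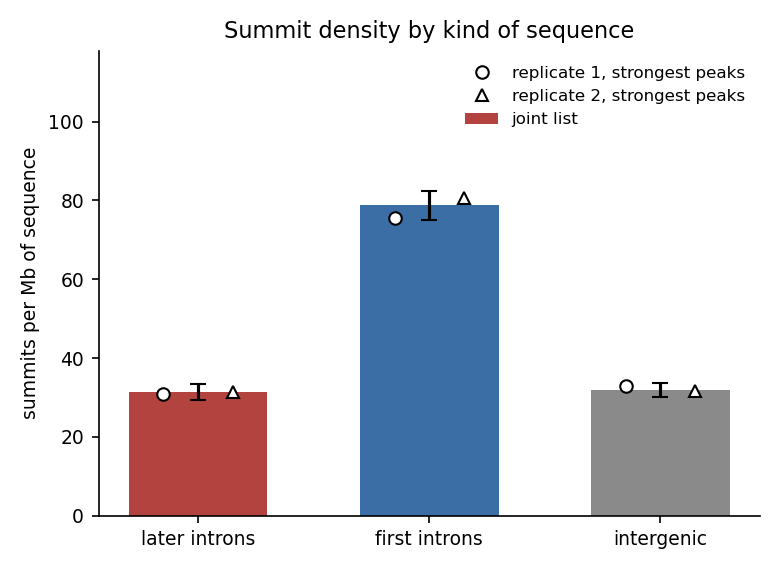
Summits per Mb of sequence in later introns, first introns and intergenic sequence; bars are the joint list with 95% exact Poisson intervals, open circles and triangles the 6270 strongest peaks of replicates 1 and 2. Later introns stood at 31.4 per Mb, first introns at 78.7 and intergenic sequence at 31.9, and each library lay close to its bar.

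Distance to a TSS moved with the density. Later-intron sequence lies further out than first-intron sequence, with 44.4% of its bases more than 10 kb from any TSS, against 17.9% for first introns and 35.9% between genes. From 500 to 1000 bp away, the density was 54.5 per Mb in later introns, 119 in first introns and 59.4 between genes. From 5 to 10 kb it was 35.6 per Mb in later introns, 71.2 in first introns and 36.0 between genes. Beyond 10 kb, later introns kept 21.8 per Mb, first introns 47.5 and intergenic sequence 12.3. At that distance the interval of later introns (19.4 to 24.5) lay wholly above that of intergenic sequence (10.6 to 14.3), the one distance class where these differed in that way. Held at equal distance, the ratio of later to first introns was 0.479 (0.440 to 0.520) by the Mantel-Haenszel estimate, and that to intergenic sequence 1.08 (0.991 to 1.18). These estimates and the ones that follow by GC content and intron length were added after the data were seen.

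Base composition ordered the density more steeply than distance did. In later introns, windows of 50 bp on either side with under 30% GC carried 94.8 summits per Mb, those with 35 to 40% carried 25.003 and those with 45% or more carried 6.20. First introns had 228, 61.1 and 20.8 per Mb at the same GC, and intergenic sequence had 109, 23.03 and 5.67. All kinds of sequence fell with GC, and first introns stood above later introns in each of the 5 classes. At equal GC the ratio of later to first introns was 0.392 (0.362 to 0.425), and that to intergenic sequence 0.938 (0.862 to 1.02).

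Short later introns were sparse in summits. Those under 1 kb carried 9.24 per Mb and those of 1 to 2 kb 14.7, where first introns of the same lengths carried 71.8 and 100.4. From 2 to 5 kb the later introns carried 42.9 per Mb and the first introns 93.9, and beyond 20 kb they carried 32.1 and 60.7. At equal length the ratio of later to first introns was 0.437 (0.403 to 0.474). With distance, GC and length held together it was 0.573 (0.525 to 0.624), closer to 1 than any of the 3 alone, and later introns with distance and GC held stood at 1.01 (0.929 to 1.10) times intergenic sequence. Within an intron, the last of 3 equal stretches carried fewer summits: 25.7 per Mb in later introns, against 32.3 in their first and 35.8 in their middle stretch. First introns had 57.3 per Mb in the last stretch, against 94.8 in the first and 80.2 in the middle.

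**Figure D2:**
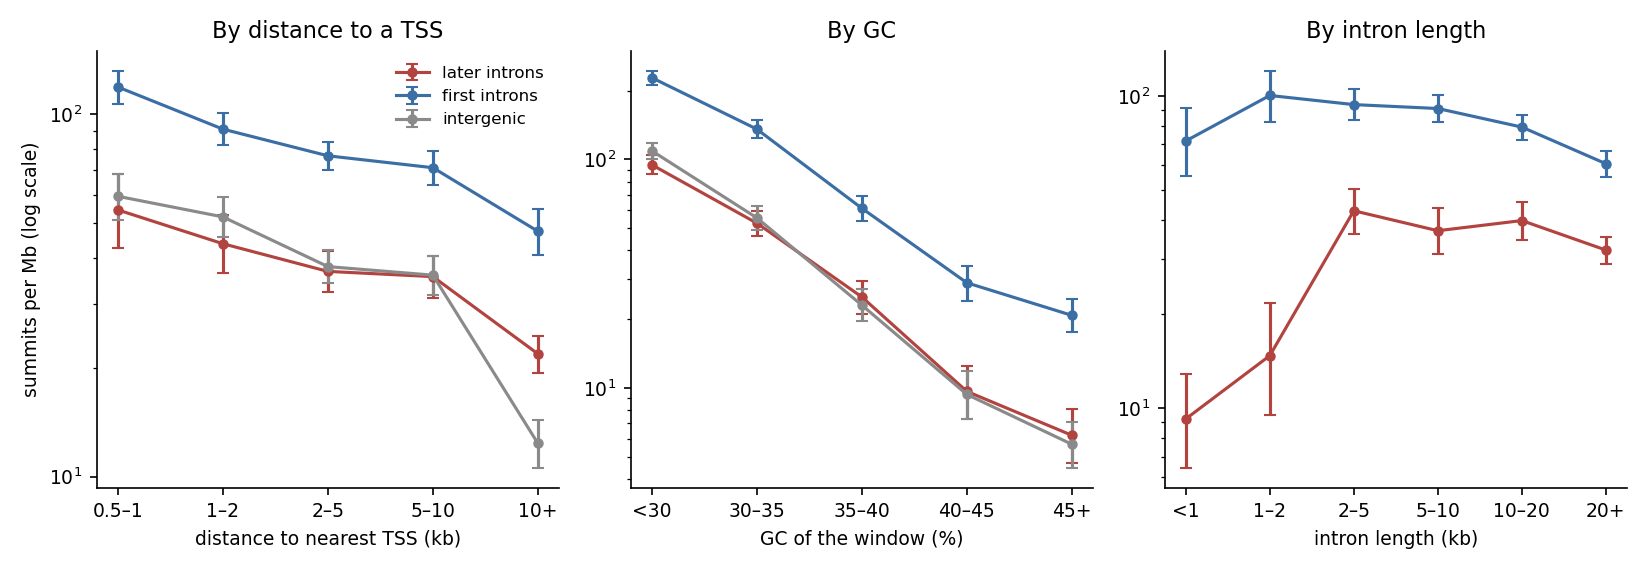
Summits per Mb on log axes by distance to the nearest TSS, by GC content of the window of 50 bp on either side and by intron length, for later introns, first introns and intergenic sequence, with 95% exact Poisson intervals. First introns lay above later introns in every class, and later introns under 1 kb stood at 9.24 per Mb where first introns stood at 71.8.

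For later-intron summits the median distance was 5669 bp to the closest TSS and 2243 bp to the closest coding-gene exon, in an intron of 15851 bp. Of the 934, 741 (79.3%) were more than 2 kb from any TSS and 288 (30.8%) more than 10 kb. The farthest lay 51781 bp away. Close to the rule's limit, 18 members lay 501 to 600 bp from a TSS, and 23 joint peaks at 401 to 500 bp would have qualified but for that distance. The intron was the second of some transcript for 583 members (62.4%), and the fifth or later in every transcript for 104 (11.1%). The nearest TSS belonged to a host gene in 467 (50%) and to another gene in the rest. Introns over 10 kb held 589 members (63.1%), and introns under 1 kb held 35 (3.75%). Lower-case (repeat-masked) bases lay under 242 summits (25.9%), where they make up 24.3% of later-intron sequence. The libraries differed: the share was 22.6% of later-intron summits among the strongest peaks of replicate 1 and 32.4% among those of replicate 2. Other summits moved the same way, from 21.6 to 29.2% in first introns and from 20.5 to 27.8% between genes.

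Crowding was the one measure of 6 on which later-intron peaks passed a test against first-intron peaks. Another joint summit lay within 2 kb of 414 of 934 later-intron summits (44.3%), against 915 of 1751 first-intron summits (52.3%). This gave an odds ratio of 0.728 (interval 0.618 to 0.856, by Fisher's exact test, adjusted p = 0.00119 over 12 tests). First introns had a higher density of summits to begin with, and in the stronger 3135 joint peaks the odds ratio was 1.09 (exact adjusted p = 0.832). Against intergenic peaks, with 47.2%, the odds ratio was 0.889 (0.747 to 1.06, exact adjusted p = 0.255). Signal above the list's median was found in 45.4% of later-intron peaks, 50.5% of first-intron peaks (odds ratio 0.815, 0.693 to 0.959, exact adjusted p = 0.0721) and 50.2% of intergenic peaks (0.823, 0.692 to 0.980, exact adjusted p = 0.104). Among the strongest 6270 peaks of both libraries were 74.3% of later-intron, 77.1% of first-intron and 76.8% of intergenic peaks (exact adjusted p = 0.182 and 0.255). TAATTA, the share of low-GC windows and the share with a library ratio above 0 did not pass either, with odds ratios of 0.907, 1.17 and 1.02 against first-intron peaks.

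The X chromosome stood out in later introns. It carried 248 of the 934 summits in 17.0% of later-intron sequence, a density of 49.1 per Mb (43.2 to 55.6), where the large autosomal arms carried 25.9 to 35.7. In the strongest peaks of replicate 1 the X had 48.5 per Mb and those arms 26.1 to 34.1, and in those of replicate 2 the X had 46.5 and those arms 26.3 to 36.4. Intergenic sequence ran the other way, with 25.03 per Mb on the X, below every large arm but 2R. First introns had 83.7 per Mb on the X (75.5 to 92.5), against 73.8 to 81.8 on the large autosomal arms. Of the 12 genes with most later-intron summits, 4 are on the X (kirre, CG1677, Raf and mgl). Without the introns of those 12 genes the X still had 40.6 per Mb (34.98 to 46.9), against 22.8 to 30.2 on the large autosomal arms. Among genes with later-intron sequence, 90 of 1229 on the X held a summit (7.32%), against 315 of 6451 elsewhere (4.88%). These shares were not matched for length, and the median of later-intron sequence was 0.372 kb on the X and 0.297 kb elsewhere. The small chromosome 4 carried 0 later-intron summits in its 0.422 Mb, in the joint list and in each library, which allows up to 8.74 per Mb. These values were picked out after the arms were seen, so no test is given.

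Host genes were few. Of the 7680 protein-coding genes with later-intron sequence, 405 held at least 1 summit (5.27%). Of these, 224 held 1, 62 held 2 and 119 held 3 or more, and 343 also held a later-intron summit among the strongest peaks of each library. Hosts had far longer later introns, with a median of 13.9 kb, against 0.277 kb in the other genes. The share with a summit was 0.270% among genes with under 1 kb of such sequence, 33.1% from 10 to 20 kb and 43% at 50 kb or more. Density did not follow that order: it was 11.2 summits per Mb in the smallest class, 46.7 from 5 to 10 kb and 19.0 at 50 kb or more. Counts per gene below therefore rest on unequal lengths, which are given for the 12 leading genes and some others.

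The 12 genes with most summits held 144 of the 934 (15.4%) in 3.61% of later-intron bases. The immunoglobulin-family recognition gene kirre led with 25 in 293 kb, with 27 and 24 in replicates 1 and 2. The adhesion genes ds, a protocadherin of planar polarity and growth control, and ed, an immunoglobulin-family protein, had 9 each, in 56.1 and 76.1 kb. Per length, the order was different. CG1677 had 18 summits in 47.0 kb, or 3.83 per 10 kb (17 in each library), and Tet, whose mammalian relatives oxidise 5-methylcytosine, had 15 in 49.5 kb, or 3.03 per 10 kb (15 and 17). The kinase gene Raf, which acts between Ras and MEK, followed with 10 in 33.8 kb, or 2.96 per 10 kb (9 in each library). At kirre the figure was 0.853 per 10 kb. Of the remaining members of the 12, mtgo had 13 summits in 86.7 kb and SKIP 10 in 139.9 kb. The homeobox gene hth had 10 in 87.1 kb and the endocytic receptor gene mgl 9 in 96.8 kb. The wing vein gene px had 9 in 36.9 kb and the Wnt receptor gene fz2 7 in 72.4 kb. Other genes also held 7, and fz2 was taken for its summed signal, the highest among them. At px the libraries differed most within this set, with 5 in replicate 1 and 10 in replicate 2.

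Single introns carried much of this. Among the introns with a member, 179 held 2 or more and 54 held 4 or more. One intron of CG1677 (X, 7284759 to 7358660, 73.9 kb) held 17, and one of kirre (X, 2995489 to 3066110, 70.6 kb) held 14. Introns of mtgo (2L, 16559945 to 16652742) and Tet (3L, 2796682 to 2851558) held 11 each, and one of Raf (X, 2296354 to 2339990, 43.6 kb) held all 10 of that gene. CG34367 itself (2L, 10347851 to 10353905) has 0.463 kb of later-intron sequence and held 0 summits there, and 0 joint summits anywhere in the gene.

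Hosts also tended to carry peaks elsewhere in the gene. A joint summit lay within 500 bp of a TSS of the gene itself in 177 of 405 hosts (43.7%, 38.8 to 48.7%), against 1487 of 7275 other genes with later-intron sequence (20.4%, 19.5 to 21.4%). A first-intron summit was found in 172 hosts (42.5%) and in 605 of the others (8.32%). Among genes with at least 10 kb of later-intron sequence, 42.1% of 240 hosts and 15.7% of 414 others had a summit at an own TSS, and 47.1% of hosts and 16.9% of others had one in a first intron. This comparison was added after the data were seen and carries no test.

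Gene lists were set beside the 5.27% of all genes and the 31.3 summits per Mb of their later introns. The 5.27% was not matched for length. Over all genes the median was 0.305 kb of later-intron sequence. List medians ran from 0.369 kb (cell cycle) to 22.3 kb (axon guidance). They were 19.0 kb for neuronal excitability, 18.4 kb for the ecdysone cascade and 12.5 kb for dpr and DIP genes. Of all genes with 10000 to 20000 bp of such sequence 33.1% held a summit, and with 20000 to 50000 bp 38.1%. Most lists of growth, patterning and signalling genes stood above the density of 31.3 per Mb, with the exceptions given below. The dpr and DIP list and the neuronal excitability list had intervals wholly below it. Intervals are exact Poisson intervals that cover counting error only, lists share members, and no test was made over a list.

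Among the signalling lists, the BMP pathway, which carries Dpp signals to target genes, had summits in 7 of 18 genes with later-intron sequence (38.9%) and 249 per Mb (142 to 404). Its leading members were the zinc finger cofactor shn with 6 summits in 7.70 kb, the inhibitory Smad Dad with 3 and the extracellular BMP-binding protein cv-2 with 3. The Notch pathway had 6 of 11 genes (54.5%) and 131 per Mb (83.0 to 196), led by the coactivator mam with 7 and by the receptor N and the protease kuz with 4 each. Ser also held 4, and N and kuz were taken for their higher peak signal. At N, the strongest peaks of replicate 1 gave 1 summit and those of replicate 2 gave 4. The ligand gene Delta was entered under an older symbol that was not matched, so it is not in these counts; it held 1 summit in 12.9 kb, as it did in each library. The Wnt pathway had 5 of 17 (29.4%) and 106 per Mb (66.9 to 158). Its receptors led it, with 7 summits each at fz2 (72.4 kb), fz (59.3 kb) and arr (21.3 kb). Planar cell polarity had 4 of 10 (40%) and 107 per Mb, with ds, fz and the kinase nmo at 9, 7 and 6. The Hippo pathway had 5 of 15 (33.3%) and 102 per Mb, with ds at 9, ex at 2 and ft at 1. The list of the EGFR and Ras pathway had 3 of 16 (18.8%) and 132 per Mb (78.0 to 208). All but 1 of its 18 summits lay in Raf with 10 and the ETS factor gene pnt with 7, and the repressor gene cic had the other. In the insulin and TOR list, 4 of 20 genes (20%) had a summit, led by sima and InR with 2 each, and the density was 52.7 per Mb (19.3 to 114.7).

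In the cell cycle list the median gene had 0.369 kb of later-intron sequence and in the chromatin list 0.427 kb, against 0.305 kb over all genes. Cell cycle regulators had summits in 5 of 22 genes (22.7%), 13 in 44.6 kb in all, or 291 per Mb (155 to 498). The leading members were Mnt, an antagonist of Myc, with 5 in 9.17 kb, Myc with 4 in 8.15 kb and E2f1, an activator of S phase genes, with 2. The list of Polycomb, trithorax and Brahma proteins had 4 of 31 (12.9%) and 111 per Mb (44.7 to 229), led by the Brahma complex gene osa with 3, the chromodomain helicase gene kis with 2 and Trl, which encodes GAGA factor, with 1.

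The ecdysone cascade, which times metamorphosis, had summits in 8 of 15 genes (53.3%) and 66.4 per Mb (41.1 to 102). The receptor gene EcR held 5 summits in 18.4 kb, the transporter gene E23 held 4 and the early ETS factor gene Eip74EF held 3. Leg and appendage patterning factors had 6 of 22 (27.3%) and 68.8 per Mb, with hth at 10, the zinc finger gene bowl at 5 in 7.07 kb and mirr at 2. The entry dys of this list was not matched to a gene and is not in these counts. The homeobox list, the class of CG34367 itself, had 9 of 63 (14.3%). Its density was 32.7 per Mb (19.7 to 51.1), close to that of all genes, and 10 of its 19 summits lay in hth. Proneural and neural precursor genes had 4 of 11 (36.4%), with 1 summit each and an interval of 16.5 to 155 per Mb that includes the background. The circadian list had 1 of 14, all 6 of its summits being in nmo, and the kirre family had 1 of 4, that gene being kirre.

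The dpr and DIP genes and the neuronal excitability genes were at the other end. The dpr and DIP genes, whose immunoglobulin-family products pair at the cell surface of neurons, had a summit in 2 of 31 (6.45%), 1 each at dpr3 and DIP-alpha. Their later introns are long, 726 kb in all, so the density was 2.75 per Mb (0.334 to 9.95), and their first introns held 0 summits in 288 kb. Neuronal excitability genes, for ion channels, receptors and exchangers, had 3 of 30 (10%) and 8.60 per Mb (3.46 to 17.7), with 4 summits at the calcium channel subunit gene Ca-beta, 2 at nAChRalpha6 and 1 at Nckx30C. Muscle structure genes had 1 of 22, at Zasp52, and the interval of 0.208 to 45.9 per Mb includes the background. Axon guidance and synaptic targeting genes lay near the background at 36.0 per Mb (24.9 to 50.3), with 10 of 27 genes (37.0%), led by Ptp10D with 7 and by Ten-a and Sema1a with 6 each. Cytoplasmic ribosomal protein genes had 0 of 22, in only 10.4 kb, which is too little to tell a low density from the background. In first introns the lists gave 453 per Mb for cell cycle regulators, 427 for the chromatin list, 264 for insulin and TOR signalling, 226 for the Hippo pathway and 220 for the BMP pathway, where all genes had 78.8. Among the lists below that value were planar cell polarity with 53.3, leg and appendage factors with 65.8 and the kirre family with 14.2, all above the background in later introns, and neuronal excitability with 26.1.

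**Figure D3:**
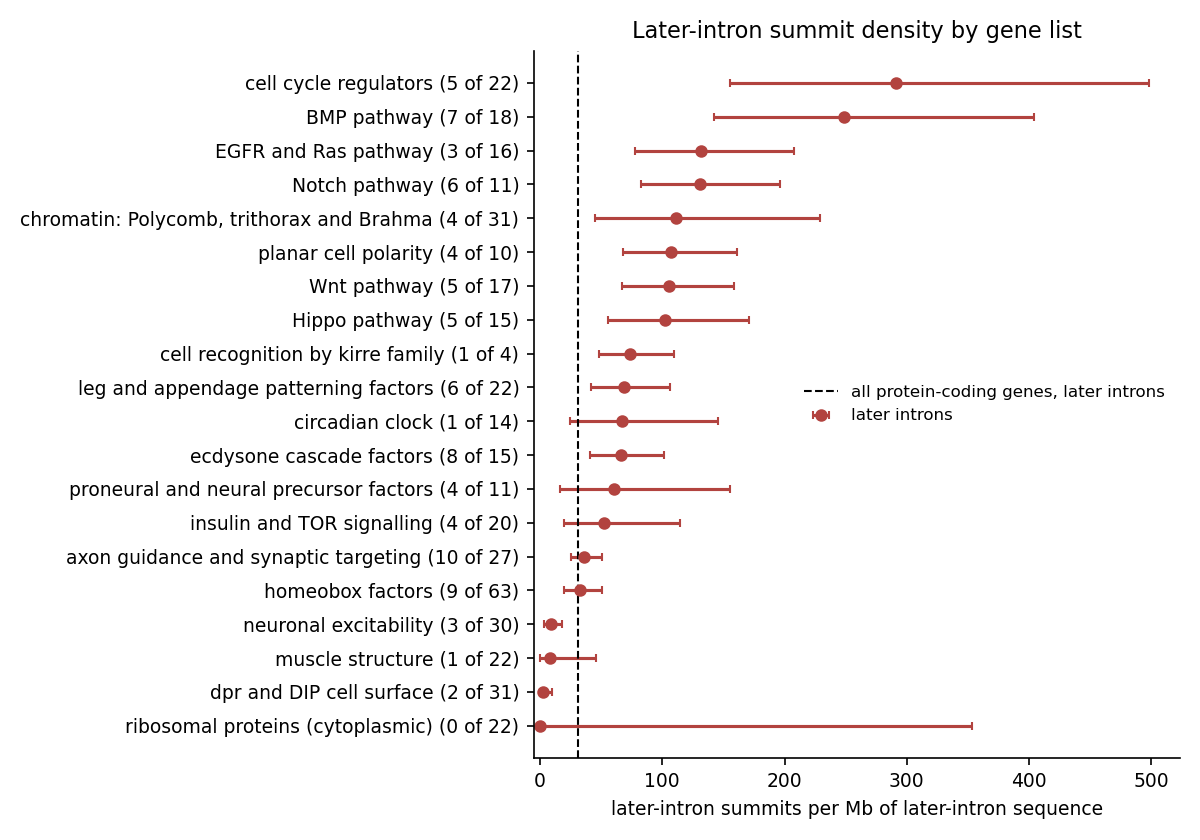
Later-intron summits per Mb of later-intron sequence for 20 gene lists, with 95% exact Poisson intervals; brackets give the genes with a summit of those with later-intron sequence, and the dashed line marks all protein-coding genes at 31.3 per Mb. Cell cycle regulators (291) and the BMP pathway (249) stood highest, and the dpr and DIP genes (2.75) and neuronal excitability genes (8.60) had intervals wholly below the line.

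The joint list was selected on repeatability, so the presence of its peaks in both libraries is a description. Deposited signal, a score per peak from the authors' caller, ranged over the members with a median of 233 and a highest value of 3510, where first-intron peaks had a median of 249 and intergenic peaks 249. Of the 300 strongest joint peaks 24 were in later introns, and of the 100 strongest 6. Both lie below the 14.9% that later introns held of the whole joint list. The strongest of all, rank 4 of the joint list, lay in CG11050 (2L, 6612521 to 6612900), with signals of 1966 in replicate 1 and 1549 in replicate 2. Its summit sat in an intron of only 140 bp, 1026 bp from the TSS, so the peak of 380 bp reached into the exons on either side. The peak at osa (3R, 17704235 to 17704610) ranked 20, with 1431 and 1202 in replicates 1 and 2. That at pum, which encodes an RNA-binding repressor of translation (3R, 9229100 to 9229445), ranked 28, with 1196 and 1100. At Trl (3L, 14759324 to 14759711) the signals were 1008 and 1167, and at Raf (X, 2300539 to 2300854) they were 1049 and 725. In each library CG11050 was the highest of these 5 and osa the next.

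The next 10 included chromatin and hormone response genes. Tet had 2 of them (3L, 2824017 to 2824394, joint rank 66, and 2834989 to 2835376, rank 188). JIL-1, a histone H3 kinase (3L, 11084630 to 11084940), ranked 102, and Psc, a Polycomb protein (2R, 12975432 to 12975740), ranked 195. The ecdysone-induced ETS factor gene Eip74EF (3L, 17578387 to 17578750) ranked 125. The EGFR pathway effector pnt had 2 peaks (3R, 23326352 to 23326653, rank 132, and 23334103 to 23334580, rank 179). Myc (X, 3381743 to 3382054) ranked 133, kirre (X, 3046013 to 3046312) 155 and CG6330 (3R, 26954016 to 26954420) 219. Both libraries gave all of these a signal of at least 309. The lowest value belonged to the second Tet peak, with 309 in replicate 1 and 901 in replicate 2.

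Both libraries' full lists held a peak at 910 of the members (97.4%), and for 694 (74.3%) it was among the 6270 strongest of each. Replicate 1 alone had a further 113 among its strongest and replicate 2 alone 125, which leaves 2 that neither did. Log2 signal of the 910 correlated between libraries (Pearson's r 0.71, Spearman's rho 0.64), a description over peaks, not replicates. Signal in replicate 2 over that in replicate 1, as a log2 ratio set to a median of 0 over all joint peaks, had a median of 0.04 and an SD of 0.70 in later introns, and 129 peaks (14.2%) lay more than 2-fold from 0. It moved with base composition: the median was 0.14 at peaks with under 30% GC, -0.08 from 30 to 35% and -0.19 at 35% or more (rho -0.22 over the 910). The part of base composition in the differences between libraries was not tested.

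The most one-sided members stood far from the top of the list. Furthest towards replicate 1 was a peak in shn (2R, 11197391 to 11197770), with signals of 154 in replicate 1 and 20.9 in replicate 2 and a centred log2 ratio of -2.93. A peak in Zdhhc8 (X, 9344697 to 9344799) had 153 and 26.1 (-2.59), and one in EcR (2R, 6151077 to 6151456) had 210 and 56.7 (-1.93). Towards replicate 2 stood a peak in N, the Notch receptor gene (X, 3161965 to 3162147), with 29.3 in replicate 1 and 224 in replicate 2 (2.89). Peaks in ckn (2R, 14973255 to 14973634, 23.9 and 177, ratio 2.85) and mtgo (2L, 16562371 to 16562750, 22.0 and 133, ratio 2.55) followed. Their joint ranks ran over 2927 to 5378, and each signal is that of the replicate peak with the summit closest to the joint summit. At shn another replicate 2 peak that overlapped the joint peak was among the 6270 strongest of that library. The counts of summits given for EcR, N and mtgo include a peak that was among the strongest of 1 library only.

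**Figure D4:**
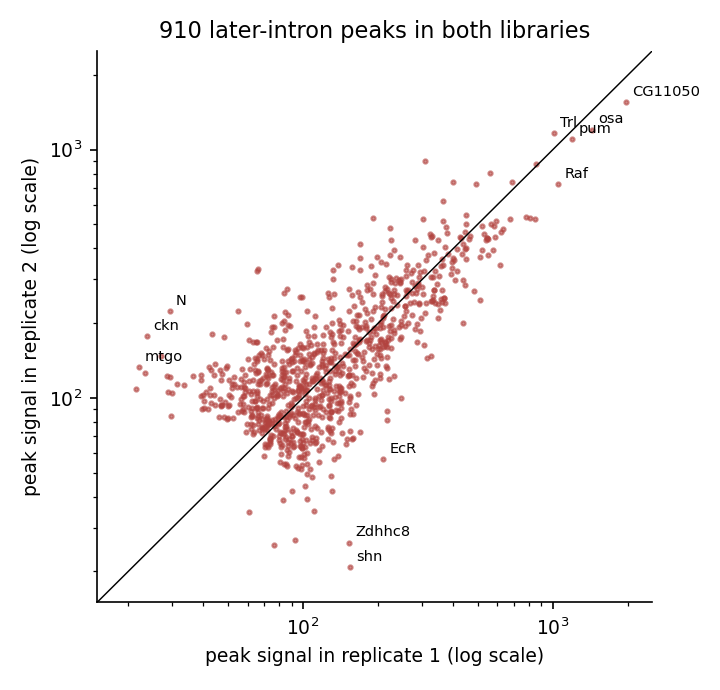
Deposited peak signal in replicate 1 (x axis) and replicate 2 (y axis), both on log scales, for the 910 later-intron peaks found in both full lists; the line marks equal values. CG11050 stood at the top of both libraries (1966 and 1549), and the named peaks off the line, such as ckn (23.9 and 177) and N (29.3 and 224), lay towards one of them.

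Later-intron summits were AT-rich. Windows of 50 bp on either side had a mean GC content of 31.8% ± 7.48 (SD, n = 934 summits), where first-intron summits had 32.4% and intergenic summits 31.2%. Paired flanks were centred on later-intron bases 400 bp away, and their ends could reach other kinds of sequence. They had 43.8% GC, above the 39.9% of all later-intron bases. Mean GC was 33.0% in the fifth of members with the weakest signal and 29.96% in the fifth with the strongest, and TAATTA was found in 5.35, 10.2, 8.60, 9.09 and 10.2% of 5 equal parts of the members in order of signal, weakest first. Every sequence of 6 letters, both strands merged, was then compared between the 910 summits and their flanks. Of all hexamers, 296 (14.2%) were more frequent at summits and 550 (26.4%) less frequent (exact McNemar test, Benjamini-Hochberg adjusted over all of them). The calls followed base composition. All 36 hexamers of A and T alone were higher, as were 168 of the 192 with a single G or C, whereas 28 of the 36 with only G and C were lower. Between these ends, hexamers with 3 G or C letters had 3 higher and 108 lower of 640.

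The 8 hexamers with the smallest p in the higher direction were led by AAATAT, in 34.0% of summits and 13.4% of flanks (ratio 2.53, exact adjusted p = 1.99e-22). The other 7 had ratios of 2.48 for TTAAAA, 2.29 for AAAATA, 3.57 for ATATTA, 2.94 for AATATA, 3.06 for TATTAA, 2.48 for ATTTTA and 2.37 for ATTTAA. Among the 36 words of A and T the highest ratio was that of ATATTA, with 22.0% of summits and 6.15% of flanks (3.57, exact adjusted p = 7.21e-19). The homeodomain core TAATTA lay in 8.57% of summits and 5.16% of flanks (ratio 1.66, exact adjusted p = 0.0179), which gave it rank 32 of those 36. In the lower direction CAGCCA led, in 2.09% of summits and 8.57% of flanks (ratio 0.244, exact adjusted p = 1.75e-08). The ratio was 0.169 for AGGGGG, 0.229 for CCCCAA, 0.310 for GCCAGC, 0.296 for GCTGCC, 0.0789 for CCTCCC, 0.214 for GGCGAC and 0.246 for CGGCAA.

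**Figure D5:**
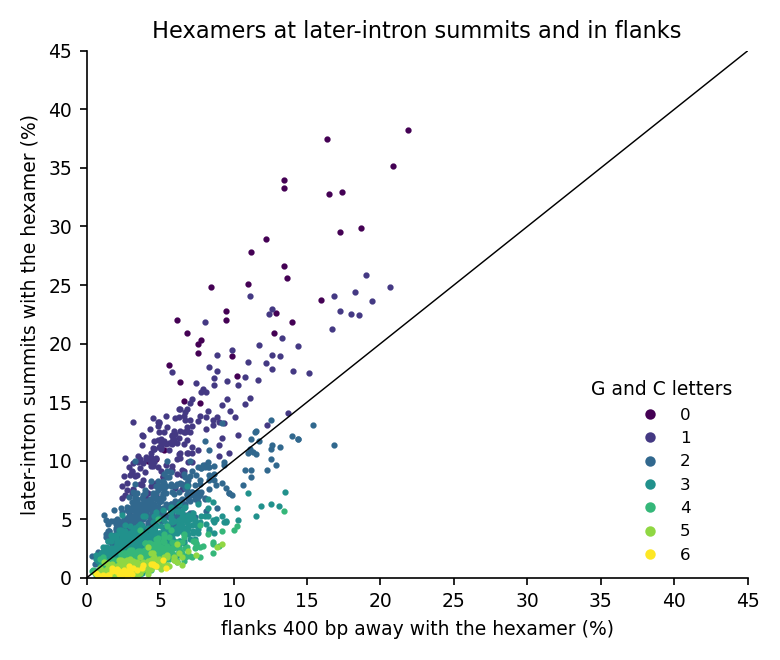
Each hexamer by the percentage of later-intron summits that hold it (y axis) and the percentage of paired flanks 400 bp away that hold it (x axis), coloured by its number of G and C letters; the line marks equal shares. Hexamers of A and T alone lay above the line, all 36 of them, and those of G and C alone lay near 0 at the summits.

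Weighting to GC content changed which words stood apart. All 294737 windows of the same length laid end to end through later-intron sequence were weighted to the GC content of the 934 summits, a comparison added after the data were seen and given with no test. TAATTA then lay in 8.67% of summits and 11.7% of windows, and AAATAT in 33.8% and 33.1%. ATATTA was slightly above, with 21.8% of summits and 19.4% of windows. Of the 539 hexamers found in at least 5% of the paired summits, the ratio had a median of 1.05 and ran over 0.654 to 2.25. ATCTTA, with 13.3% of summits and 7.46% of windows of equal GC, was among the 5 highest, and it was the most common of these. Against flanks it was found in 13.3% and 3.19% (ratio 4.17, exact adjusted p = 4.54e-14), the highest ratio of the 192 hexamers with a single G or C. To windows of equal GC the ratio was 1.78 for ATCTTA, 2.25 for ACTGAG, 1.94 for CAGTGC, 1.80 for GAGAGA and 1.77 for AGTATC. To flanks, the other 4 had ratios of 2.23 for ACTGAG, 1.89 for AGTATC, 1.05 for CAGTGC and 0.830 for GAGAGA. The exact adjusted p against flanks was 0.00558 for ACTGAG and 0.0219 for AGTATC. It was 0.965 for CAGTGC and 0.530 for GAGAGA, which did not pass. The run AAAAAAAA, on either strand, lay in 13.9% of later-intron summits, 10.9% of windows of equal GC, 11.2% of first-intron summits and 7.63% of intergenic summits.

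ATCTTA was chosen for its high share within 50 bp of summits, so that share is a description. Its centre lay within 50 bp of 13.7% of later-intron summits, at 50 to 100 bp in 6.96%, at 100 to 150 bp in 3.75% and at 250 to 300 bp in 2.57%. The same shares were 12.1, 7.61, 3.70 and 2.83% for the later-intron summits among the strongest peaks of replicate 1, and 12.6, 7.07, 3.96 and 2.78% for those of replicate 2. ATATTA in the joint list lay at 22.4% within 50 bp and at 4.07% at 250 to 300 bp, and TAATTA at 9.42% within 50 bp and at 4.82% at 250 to 300 bp. First-intron summits held ATCTTA in 8.68% and intergenic summits in 10.4%, against 13.3% of later-intron summits, and the difference from first introns did not pass over all hexamers (exact adjusted p = 0.0986). No binding protein is assigned to this word here.

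Few hexamers told later-intron and first-intron summits apart. Of all hexamers, 0 (0%) were higher at later-intron summits and 1 (0.0481%) was lower by Fisher's exact test with adjustment over all of them. At an unadjusted p below 0.05, 58 were higher and 86 lower. With all hexamers tested, some pass that limit with no difference at all, so these counts are not calls. The single call was ATGTCG, in 0.535% of later-intron and 2.80% of first-intron summits (exact adjusted p = 0.0391). It was lost in 4 of the alternatives, among them each library taken singly, where the count was 0. TAATTA lay in 8.67% of later-intron summits, 9.48% of first-intron summits and 10.1% of intergenic summits, with odds ratios of 0.907 (0.677 to 1.21, exact adjusted p = 0.576) and 0.841 (0.619 to 1.14, exact adjusted p = 0.321).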

How the data were processed

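The authors called peaks on each library and on the pool against a control alignment on dm6, and derived the joint list from these, per the deposited text descriptions. No source used here names the caller. The deposited signal is the authors' value per peak, of unstated scaling, used only to rank, filter and describe peaks and centred between libraries. The authors' −log10 q-value has a cap and was not used. The replicate lists hold 30000 peaks each, from which the 6270 strongest were taken.

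Genes came from Ensembl release 115 and bases from the RefSeq Release 6 assembly, whose coordinates match dm6. Every base was classed by the rule that placed the summits, and coordinates are 1-based. Where peaks gave more than 1 summit each was kept. Windows covered 50 bp on either side, flanks were centred on a later-intron base 400 bp away, overlaps needed 1 bp, and adjustments follow Benjamini and Hochberg. The tests were also run on simulated data in which summits and hexamers were independent. Real summits cluster and hexamers overlap, so that check does not extend to these features. Intervals are at 95% and cover counting error only.

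The members, the gene lists and the tests were chosen with earlier results of these data known. Of 538 list entries, 520 matched by symbol, 12 by an older symbol and 6 did not. Those 6 (Dl, d, calypso, Hgtx, dys and Tor) are not in the counts of their lists. The genes named are CG34367, the 12 with most later-intron summits, hosts of the 15 strongest members shared by both libraries, the leading 3 of each list and the 3 largest library ratios in each direction, with 8 hexamers a direction and TAATTA. Ties within a list went to the member with the higher peak signal, and Ser, which lost such a tie, is named as well. A sequence window that the rule chose is not reported here. Alternatives covered the TSS distance (1000 bp), the TSS of all gene classes, windows of 100 bp, flanks 1000 bp away, the stronger 3135 peaks, an overlap of 50% and each library alone. Scripts ran under Python 3.11.15 with scipy 1.17.1, numpy 2.4.6 and, for the plots, matplotlib 3.10.9.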

Additional observations from a re-analysis of the deposited data

How the results depend on the processing

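Of the density ratios, that of later to first introns kept its direction and its side of the threshold under every alternative tried. That of later introns to intergenic sequence was 0.984, passed under none and turned to 1.03 with a TSS distance of 1000 bp, 1.08 at equal distance and 1.01 at equal distance and GC. Of the 12 share tests, 10 kept their side of the threshold, but odds ratios that had not passed turned direction: the library ratio against first introns (1.02) to 0.991 with a TSS distance of 1000 bp and to 0.894 in the stronger 3135 joint peaks, and in those peaks signal against intergenic peaks (0.823) to 1.13 and the share among the strongest of both libraries against first introns (0.859) to 1.14. In the stronger 3135 joint peaks, which test fewer peaks, 247 genes held a later-intron summit (405 in the full list; 411 to 425 with either library alone), and 280 hexamers were lower than in flanks. With flanks 1000 bp away, 171 hexamers were higher and 269 lower, against 296 and 550 (the cause was not tested); either library alone gave 296 to 305 higher and 502 to 632 lower. The 1 hexamer that differed from first introns was reduced to 0 with a TSS distance of 1000 bp, in the stronger 3135 peaks, and in either library alone (0 to 0); the cause was not tested. The share with a neighbouring summit turned against first introns in the stronger 3135 peaks, to an odds ratio of 1.09 (34.9% against 32.9%, exact adjusted p = 0.832). The share of low-GC windows against intergenic peaks passed without replicate 1 (odds ratio 0.720, exact adjusted p = 0.00146) and not without replicate 2 (0.956); the cause was not tested. No paired analysis was possible because there is 1 group.

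With 2 libraries of 1 group, no test measures the spread between animals. Summits were taken as independent although neighbours can share signal. With read depth unknown, no error can be put on the signal of 1 peak.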
